A study of Rattus norvegicus with 20 samples.

Results

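The mitosis and G2/M genes are a list of 47 rat genes whose products carry a cell from the end of DNA replication through division. Of these, 42 were measured in liver, out of 14217 distinct gene symbols on the array. A gene counted as measured when the array annotation tied at least 1 probe set to its symbol alone, and where several probe sets met this, the brightest by its mean in the 20 rats stood for the gene. Kif4a, Tpx2, Ndc80 and Ncapg had no such probe set, and Anln was found only on a probe set shared with another symbol. No measured gene was left out for low brightness. Several, Mki67, Ccna2, Bub1 and Ttk among them, had a mean log2 level below 6.37, the median over all probe sets.

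The livers came from 20 male Harlan Sprague-Dawley rats, and each rat gave 1 Affymetrix array of total RNA from pieces of the left lobe. IDDP (isodecyl diphenyl phosphate), an aryl phosphate ester used as a flame retardant and plasticiser, was given by oral gavage in corn oil in 4 daily doses. Corn oil alone went to 5 controls, and IDDP doses of 66, 132, 263.6, 527.1 and 1054.2 mg/kg body weight went to 3 rats apiece; the labels name no other agent or genotype. Levels are the deposited log2 intensities, and a difference of 1 on that scale is a doubling.

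In a resting adult liver nearly all hepatocytes have left the cell cycle, and transcripts of the mitotic machinery come from the few cells that divide. Cyclin B with CDK1 drives entry into mitosis, Aurora and Polo-like kinases build the spindle, and the spindle checkpoint holds the anaphase-promoting complex in check until every chromosome is attached. Most of these genes are held silent in resting cells by the DREAM complex and are switched on together late in the cycle by B-MYB with MuvB and by FOXM1.

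The arrays were alike over all probe sets, with medians between 6.31 and 6.41 and Pearson's r of 0.977 to 0.996 between pairs. All 8 hepatocyte markers on the list (among them Alb, Apoa1 and Ttr) were measured, and their mean level lay between 13.81 and 14.07 in every rat. It was 13.97 to 14.07 in the controls, and every rat at 132 mg/kg (13.81 to 13.96), 263.6 mg/kg (13.86 to 13.94) and 1054.2 mg/kg (13.85 to 13.87) lay slightly below them. For the mitosis and G2/M genes, however, 3 rats stood apart from their groups. Control replicate 5 was the highest control for 30 of the 42 genes, and 263.6 mg/kg replicate 1 was the lowest of its group for 39. In the highest dose group, replicate 1 was the lowest for 41 and lay at or below the highest control for 40. Their effect on the main counts is given beside those counts, with leaving these rats out chosen after their values were seen.

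The mitosis and G2/M genes were higher at every dose on average, most at 527.1 mg/kg, and less so at 1054.2 mg/kg. The mean of the 42 genes relative to the control mean was -0.10, -0.01, -0.12, -0.07 and 0.31 on the log2 scale in the 5 controls. It was 0.37, 0.30 and 0.47 at 66 mg/kg, 0.65, 0.28 and 0.59 at 132, 0.22, 0.87 and 1.15 at 263.6, 1.42, 0.93 and 1.25 at 527.1 and -0.10, 0.88 and 0.78 at 1054.2. The 527.1 mg/kg rats did not overlap the controls in this mean, whereas every other dose had 1 rat below the highest control, replicate 2 at 66 and 132 mg/kg and replicate 1 at 263.6 and 1054.2 mg/kg. As mean ± SD, the groups stood at 0.38 ± 0.09, 0.51 ± 0.19, 0.75 ± 0.48, 1.20 ± 0.25 and 0.52 ± 0.54 in rising order of dose (n = 3 each). All 5 doses had a higher mean than the controls for 39 of the 42 genes, against 17.9% of all probe sets. The mean at 527.1 mg/kg was above that at 263.6 mg/kg for 39, against 47.5%. The highest group mean was at 527.1 mg/kg for 38 genes, against 15.2% of all probe sets. With control replicate 5 and replicate 1 at 263.6 and 1054.2 mg/kg all left out, these counts were 39, 35 and 33, in that order. The shares of all probe sets were then 19.7%, 50.1% and 16.0%. In whole tissue, more dividing cells and more of these transcripts per cell cannot be told apart.

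**Figure D1:**
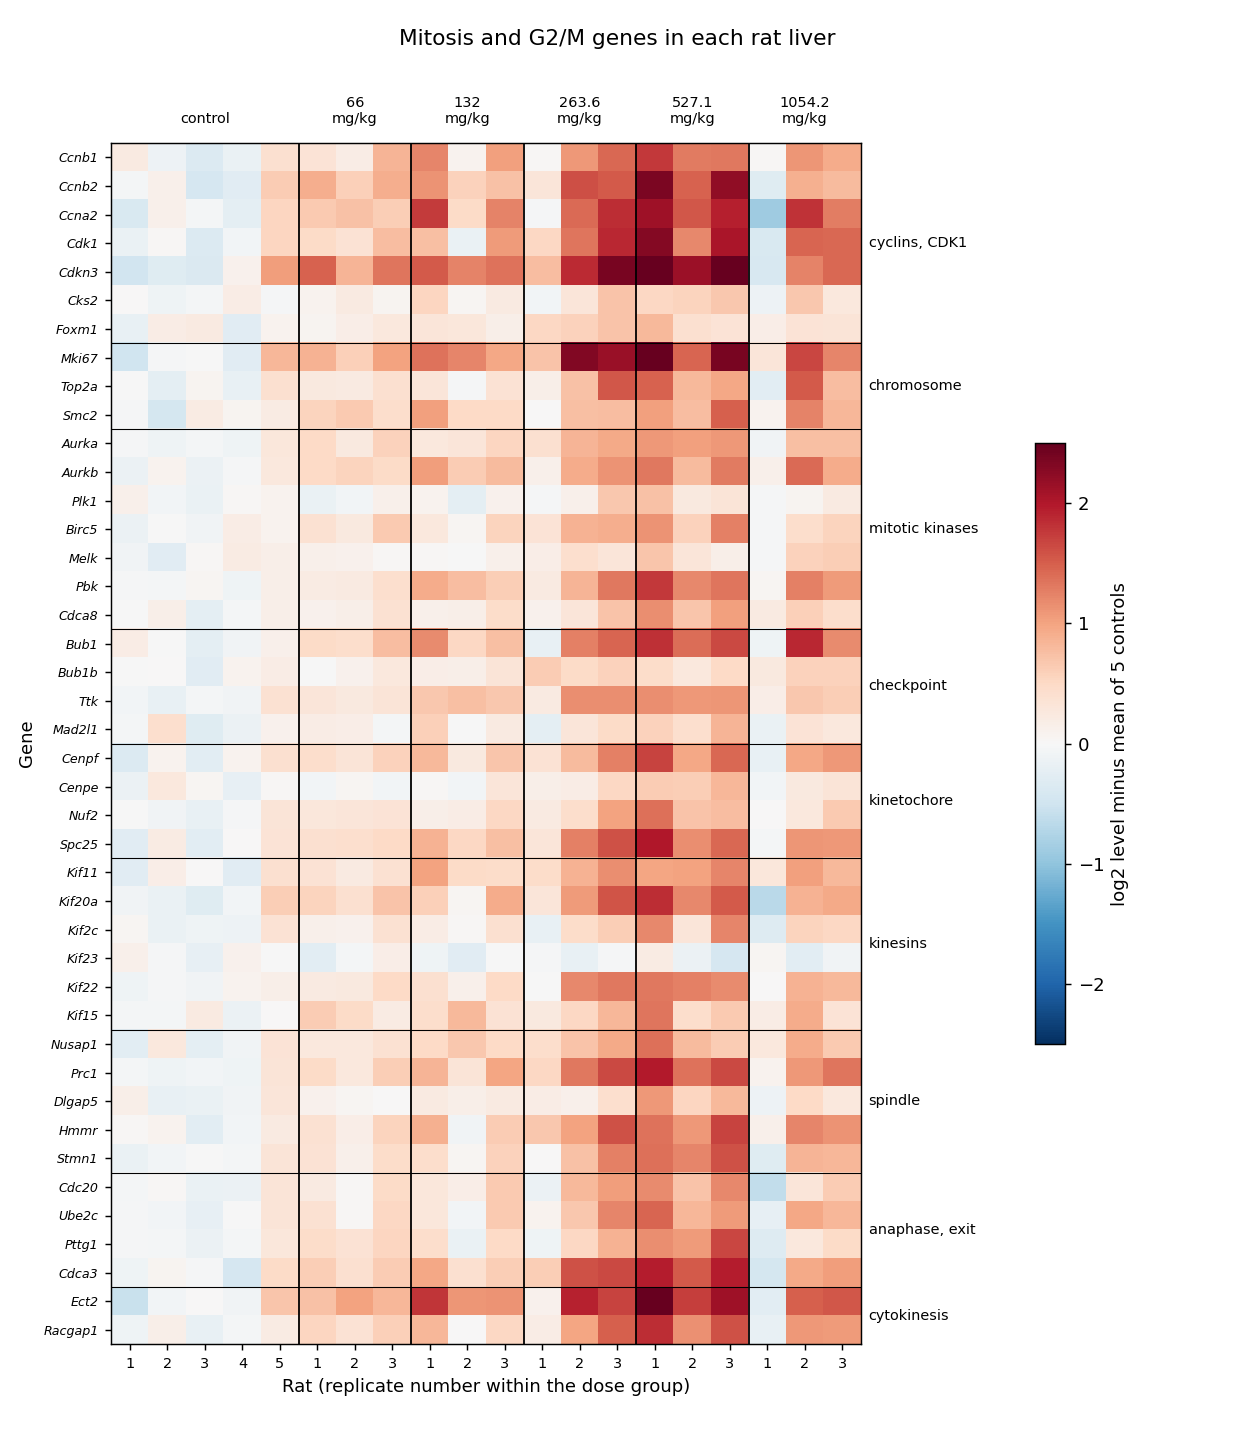
Log2 level of each of the 42 mitosis and G2/M genes (rows, by role) in each of the 20 rats (columns, by dose and replicate number), minus the mean of the 5 controls; red is higher and blue is lower. The 3 columns at 527.1 mg/kg are the most evenly red, while replicate 1 at 263.6 and replicate 1 at 1054.2 mg/kg are pale like the controls.

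Each dose was compared with the same 5 controls in limma, with p adjusted over all 31042 probe sets and a threshold of 0.05, so that these comparisons share their controls. In the 527.1 mg/kg group 35 of the 42 genes passed, all higher, where 1.19% of all probe sets passed as higher. The median change of the 42 genes was 1.12, or 2.17-fold, and that of all probe sets was -0.01. In 39 genes every 527.1 mg/kg rat lay above every control, against 7.04% of all probe sets. Without control replicate 5 this held in 40 genes, against 8.61%. Without 527.1 mg/kg replicate 1 the count past the threshold was 17, and over the other 7 ways of leaving out 1 rat it was 25 to 35.

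At 263.6 mg/kg Bub1b, Mki67, Foxm1, Ttk, Prc1 and Cdca3 passed, all higher, which is 6 of 42 against 0.274% of probe sets that passed as higher, and the median change was 0.73. The log2 changes of these 6 were 0.57 ± 0.11 (SE, adjusted p = 0.0295), 1.73 ± 0.35 (SE, adjusted p = 0.0339), 0.60 ± 0.12 (SE, adjusted p = 0.0339), 0.85 ± 0.17 (SE, adjusted p = 0.0343), 1.16 ± 0.25 (SE, adjusted p = 0.0440) and 1.28 ± 0.28 (SE, adjusted p = 0.0498), in that order. At an unadjusted p under 0.05 there were 35 members, against 6.63% of probe sets, and in 11 no rat overlapped a control, against 4.82%. Without 263.6 mg/kg replicate 1 these counts were 39 and 38, the latter against 9.19% of probe sets. Without control replicate 5 they were 37 and 26, the latter against 6.57%. The count past the threshold was 12 without 263.6 mg/kg replicate 1 and 10 without control replicate 5. In these refits the shares of all probe sets past the threshold or at an unadjusted p are not given. The count of members past the threshold was 0 without 263.6 mg/kg replicates 2 or 3 or control replicate 1, and 1 without control replicates 2, 3 or 4.

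At the lower doses 0 members passed in limma. At 66 mg/kg 0.00644% of probe sets passed as higher, and 10 members had an unadjusted p under 0.05 with a higher level, against 1.70% of probe sets. At 132 mg/kg 0.0354% passed as higher, and 19 members had such a p, against 8.11%; without 132 mg/kg replicate 3 the count past the threshold was 1. The median changes were 0.34 and 0.47, with all probe sets at -0.00 and -0.02. In 11 members at 66 mg/kg and 12 at 132 mg/kg every treated rat lay above every control, against 2.68% and 4.32% of probe sets. Without control replicate 5 there were 29 and 25, against 4.11% and 5.85%.

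Bub1b and Kif11 passed at 1054.2 mg/kg, which is 2 of 42 against 1.86% of probe sets that passed as higher. The median change was 0.50, or 1.42-fold, and 25 members had an unadjusted p under 0.05 with a higher level, against 8.29% of probe sets. Every treated rat lay above every control in only 2 members, Bub1b and Cdca8, against 6.60% of probe sets. Without 1054.2 mg/kg replicate 1 the count past the threshold was 23 and the median change 0.84. Then 37 members had such an unadjusted p and 34 lay wholly above the controls, the latter against 12.7% of probe sets. The shares of all probe sets are not given for the 23 and the 37, which cannot be set against them. Control replicate 5 also bore on the last of these, which was 10 members without it, against 8.08%. The count past the threshold was 0 without 1054.2 mg/kg replicates 2 or 3 or control replicate 3, 1 without control replicates 1, 2 or 4, and 4 without control replicate 5. In a further fit a weight was estimated for each array, which was 6.72 for 1054.2 mg/kg replicate 3 and 0.39 to 2.67 for the others. With it 37 members passed at 1054.2 mg/kg and 36 at 263.6 mg/kg. The shares of all probe sets that passed with these weights are not given, so these 2 counts cannot be set against them.

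**Figure D2:**
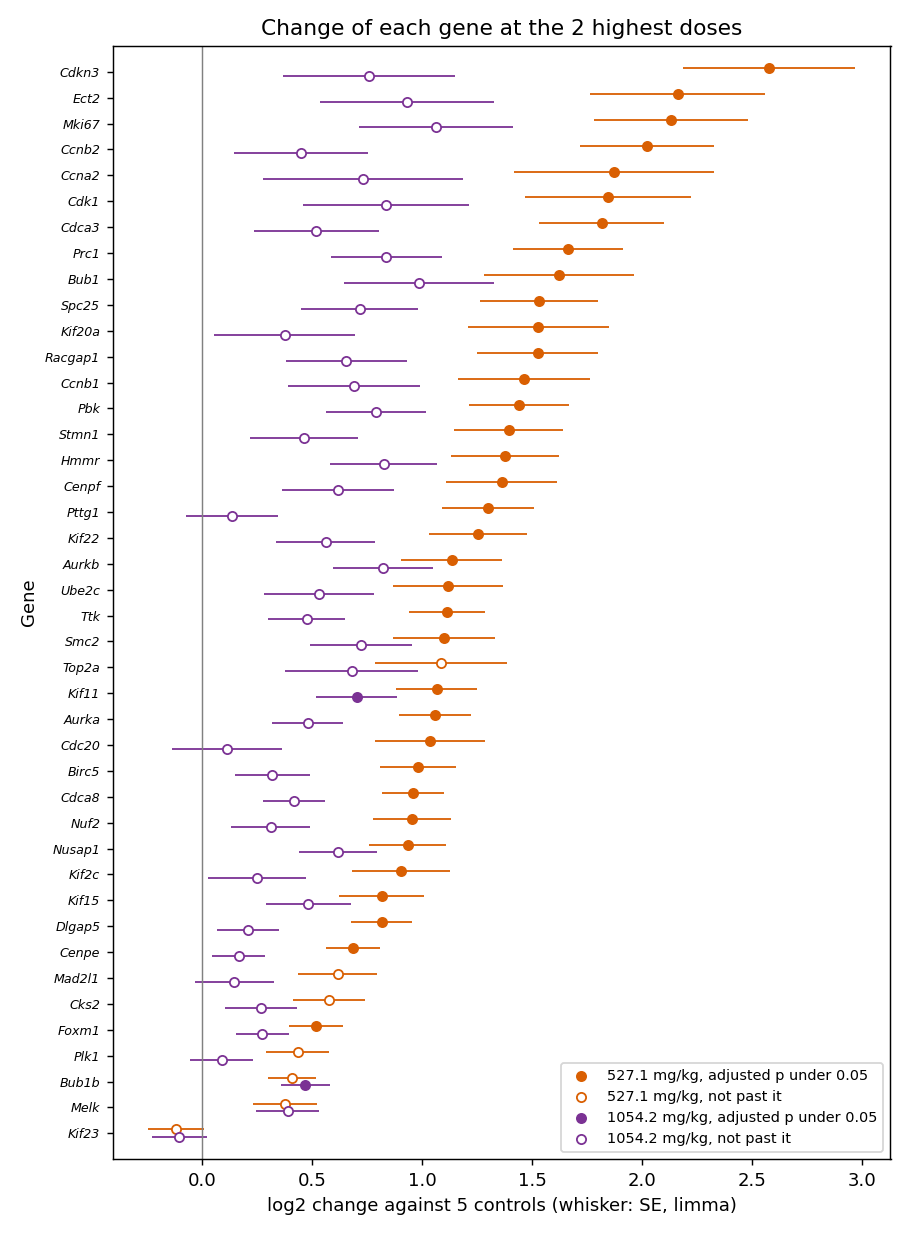
Log2 change of each of the 42 genes against the 5 controls at 527.1 mg/kg (orange) and 1054.2 mg/kg (purple), with standard errors from limma; filled points have an adjusted p under 0.05. At 527.1 mg/kg 35 points are filled and at 1054.2 mg/kg 2 are, and Cdkn3 lies farthest to the right at 2.58.

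The promoters of the members were read for the sites that late cell cycle genes are known to share. The list was made of such genes, so a high share of these sites describes the list and not a response to IDDP. RefSeq promoter windows of the rat assembly GRCr8, from 250 bases before to 50 bases after each transcript start, were found for 36 of the 42 genes by Entrez identifier. Ccna2, Aurkb, Ube2c, Pbk, Racgap1 and Foxm1 had no entry in the table. The cell cycle genes homology region (CHR), bound by MuvB complexes, was searched as TTTGAA, and the NF-Y site as CCAAT, both on either strand. The CHR letters were in 25 of the 36 windows, or 69.4%, against 18.1% of the 27457 genes in the table. The NF-Y letters were in 28, or 77.8%, against 37.7%, and both were in 21, or 58.3%, against 7.25%. The E2F letters GCGGGAA, typical of S-phase genes, were in 2 member windows, or 5.56%, against 4.47% of all genes. Of the other mitotic genes described further on 49.1% had the CHR letters, and of the S-phase genes 13.2% had them while 44.7% had the E2F letters. The NF-Y letters were in 52.7% of the other mitotic genes and 60.5% of the S-phase genes, and CHR and NF-Y letters together in 36.4% and 5.26%. In Cdca8 and Mki67 a CHR and an NF-Y match overlap. A match is a string of letters in a window and was not tested as a bound site.

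The 120 bases before the transcript start are shown for 7 genes that carry both strings and for Aurka, whose window carries neither, 5' to 3' on the gene's own strand with matches on either strand in capitals. Cdca8 lies at chr5:142483200-142483319 on the minus strand, Ccnb2 at chr8:79981659-79981778 on the minus strand, Prc1 at chr1:143659361-143659480 on the plus strand and Pttg1 at chr10:28406327-28406446 on the minus strand. Mki67 lies at chr1:199952594-199952713 on the minus strand and Cdk1 at chr20:19265173-19265292 on the plus strand. Top2a lies at chr10:84473094-84473213 on the minus strand and Aurka at chr3:181560770-181560889 on the minus strand. The Aurka window lies inside the gene, which spans chr3:181546742-181562890, and the windows of Kif11 and Nuf2 lie inside their genes too. For these genes the bases before the outer end of the gene were not searched.
Cdca8: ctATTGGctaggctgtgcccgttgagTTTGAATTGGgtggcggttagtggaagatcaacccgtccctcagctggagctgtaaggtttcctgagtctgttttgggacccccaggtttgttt
Ccnb2: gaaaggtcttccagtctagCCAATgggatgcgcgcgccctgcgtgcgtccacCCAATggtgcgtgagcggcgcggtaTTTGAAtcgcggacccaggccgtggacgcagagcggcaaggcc
Prc1: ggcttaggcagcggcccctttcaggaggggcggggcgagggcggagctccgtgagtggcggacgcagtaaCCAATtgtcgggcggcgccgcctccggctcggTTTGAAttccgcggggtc
Pttg1: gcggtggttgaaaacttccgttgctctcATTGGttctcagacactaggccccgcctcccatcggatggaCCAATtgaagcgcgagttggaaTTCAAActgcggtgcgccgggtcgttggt
Mki67: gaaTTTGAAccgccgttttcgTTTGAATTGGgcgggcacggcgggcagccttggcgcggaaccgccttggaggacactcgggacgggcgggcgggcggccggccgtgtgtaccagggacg
Cdk1: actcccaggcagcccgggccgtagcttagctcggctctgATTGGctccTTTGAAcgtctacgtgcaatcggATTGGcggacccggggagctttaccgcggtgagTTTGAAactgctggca
Top2a: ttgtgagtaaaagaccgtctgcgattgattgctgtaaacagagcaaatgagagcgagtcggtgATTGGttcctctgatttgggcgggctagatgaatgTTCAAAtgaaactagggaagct
Aurka: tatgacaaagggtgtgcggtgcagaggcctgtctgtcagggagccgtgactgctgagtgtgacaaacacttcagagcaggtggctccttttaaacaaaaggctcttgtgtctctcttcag

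In Ccnb2 the CHR match starts at -43, counted from the transcript start, with NF-Y matches at -101 and -68, and in Prc1 the starts are -18 and -50. Cdk1 has CHR matches at -72 and -16 and NF-Y matches at -81 and -49. Pttg1 and Top2a carry the CHR on the opposite strand, where it reads TTCAAA.

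**Figure D3:**
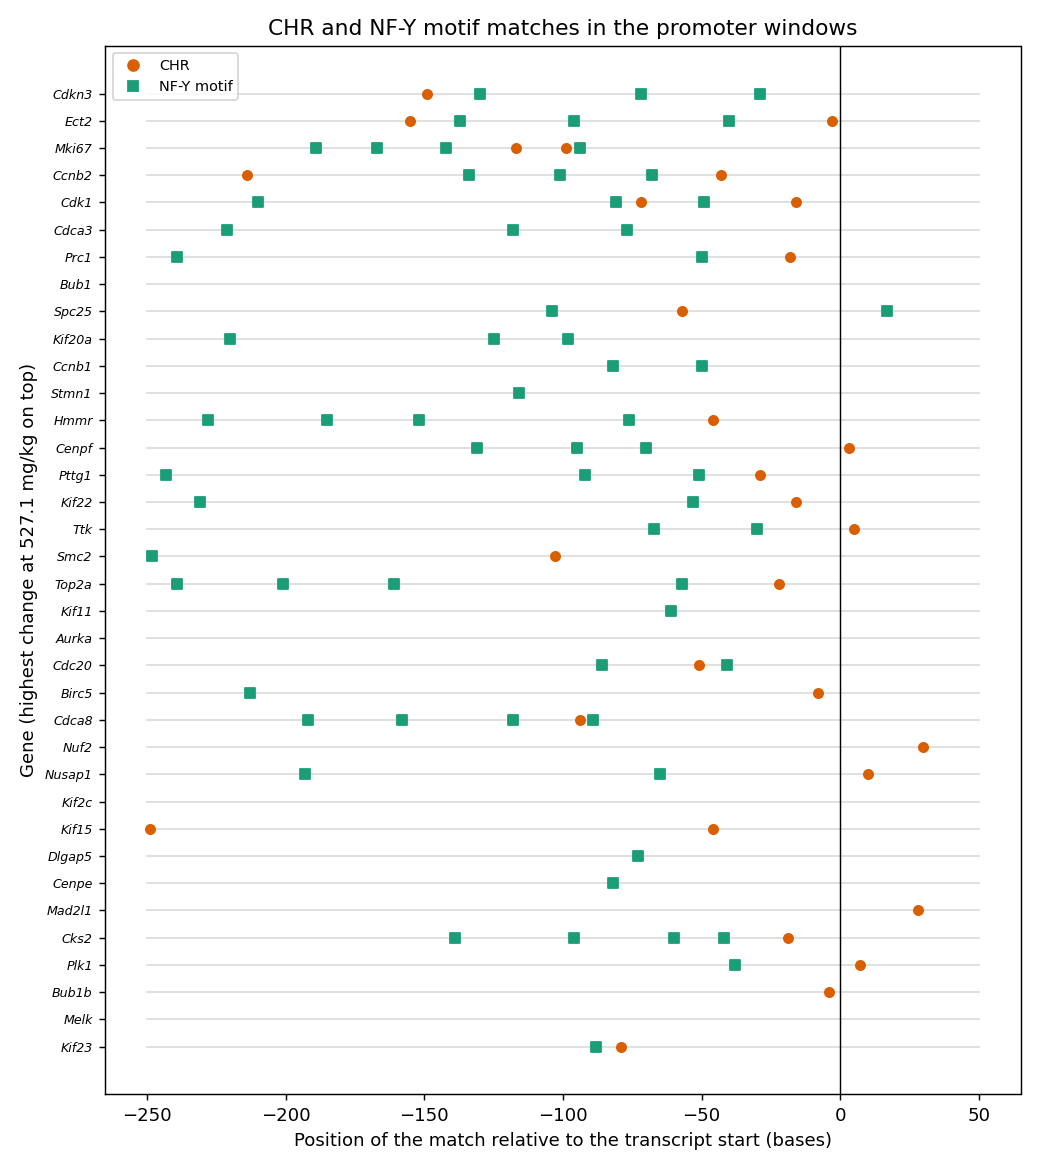
Position of each CHR match (circles) and NF-Y motif match (squares) relative to the transcript start in the 36 member promoters, in bases, with genes ordered by their log2 change at 527.1 mg/kg. Most circles lie within the last 100 bases before the start or just after it. Aurka, Bub1, Kif2c and Melk have no match of either kind in the window read, which for Aurka lies inside the gene.

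Of the cyclins, CDK1 and their partners 6 of 7 rose at 527.1 mg/kg, with a median change of 1.84. Cdkn3, which encodes a phosphatase that removes the activating phosphate from CDKs, had log2 levels of 6.59, 6.77, 6.70, 7.17 and 8.11 in the controls, 8.55, 7.91 and 8.41 at 66 mg/kg, 8.61, 8.30 and 8.42 at 132, 7.83, 8.94 and 9.44 at 263.6, 9.95, 9.21 and 9.77 at 527.1 and 6.67, 8.31 and 8.50 at 1054.2 mg/kg. Every rat at 132 and 527.1 mg/kg was above every control, while 1054.2 mg/kg replicate 1 lay among the low controls. Its rise at 527.1 mg/kg was the largest of the 42 genes, 5.97-fold (2.58 ± 0.39 SE, adjusted p = 0.00158). Ccnb2, a B-type cyclin, had levels of 6.74, 6.91, 6.37, 6.50 and 7.43 in the controls, 7.69, 7.38 and 7.70 at 66 mg/kg, 7.91, 7.36 and 7.53 at 132, 7.10, 8.40 and 8.32 at 263.6, 9.15, 8.27 and 9.01 at 527.1 and 6.48, 7.67 and 7.58 at 1054.2 mg/kg. The 527.1 mg/kg group stood clear of the controls and of both neighbouring doses except for replicates 2 and 3 at 263.6 mg/kg, which were above its replicate 2. The change was 2.02 ± 0.30 (SE, adjusted p = 0.00158), or 4.06-fold. Ccnb1, the B-type cyclin that carries CDK1 into the nucleus at mitotic entry, had levels of 6.07, 5.72, 5.51, 5.67 and 6.24 in the controls, 6.19, 6.03 and 6.69 at 66 mg/kg, 7.06, 5.93 and 6.87 at 132, 5.87, 6.92 and 7.27 at 263.6, 7.62, 7.15 and 7.16 at 527.1 and 5.88, 6.94 and 6.78 at 1054.2 mg/kg. In 4 of the 5 treated groups at least 1 rat overlapped the controls, and at 527.1 mg/kg none did. The rise there was 1.46 ± 0.30 (SE, adjusted p = 0.0142), and a second probe set of Ccnb1 rose by 1.84 (adjusted p = 0.00952). Cdk1, the kinase that triggers mitosis, was at 6.31, 6.51, 6.13, 6.40 and 7.01 in the controls, 6.95, 6.83 and 7.25 at 66 mg/kg, 7.23, 6.30 and 7.54 at 132, 6.99, 7.82 and 8.35 at 263.6, 8.76, 7.67 and 8.51 at 527.1 and 6.10, 7.93 and 7.90 at 1054.2 mg/kg. Replicate 2 at 132 mg/kg, replicate 1 at 263.6 mg/kg and replicate 1 at 1054.2 mg/kg lay within the control range or below it, and the remaining rats of those groups lay above. Cdk1 rose 3.59-fold at 527.1 mg/kg (1.84 ± 0.38 SE, adjusted p = 0.0145) and its change at 1054.2 mg/kg was 0.84 ± 0.38 (SE, adjusted p = 0.293). Ccna2, the A-type cyclin of S and G2 phase, read 4.81, 5.32, 5.15, 4.96 and 5.73 in the controls, 5.85, 5.93 and 5.81 at 66 mg/kg, 6.94, 5.68 and 6.44 at 132, 5.17, 6.62 and 7.05 at 263.6, 7.32, 6.74 and 7.14 at 527.1 and 4.30, 7.0 and 6.48 at 1054.2 mg/kg. Its 1054.2 mg/kg group held both the lowest rat of all and a rat near the 527.1 mg/kg levels. The change at 527.1 mg/kg was 1.87 ± 0.46 (SE, adjusted p = 0.0409). For Foxm1, the transcription factor that activates G2/M genes, levels were 6.06, 6.43, 6.47, 5.96 and 6.34 in the controls, 6.33, 6.41 and 6.52 at 66 mg/kg, 6.55, 6.53 and 6.39 at 132, 6.77, 6.83 and 6.96 at 263.6, 7.06, 6.66 and 6.59 at 527.1 and 6.41, 6.59 and 6.58 at 1054.2 mg/kg. Both the 263.6 and the 527.1 mg/kg groups lay above every control, and the group mean was highest at 263.6 mg/kg. The change of Foxm1 at 527.1 mg/kg was the smallest of the members that passed there, 0.52 ± 0.12 (SE, adjusted p = 0.0328), and that of its second, dimmer probe set was 0.09 and did not pass. Cks2, a small CDK-binding protein, had a change of 0.58 ± 0.16 (SE, adjusted p = 0.0822) at 527.1 mg/kg and did not pass. The calls of Ccnb1 (adjusted p = 0.0975), Cdk1 and Foxm1 were lost when 527.1 mg/kg replicate 1 was left out. Cdk1 had an adjusted p of 0.0794 and 0.104 without 527.1 mg/kg replicates 1 or 3, Ccna2 passed only with all rats or without control replicate 5 (0.0690 to 0.162 otherwise), and Foxm1 was at 0.0590 to 0.201 without control replicates 1 or 4 or 527.1 mg/kg replicates 1 or 2.

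**Figure D4:**
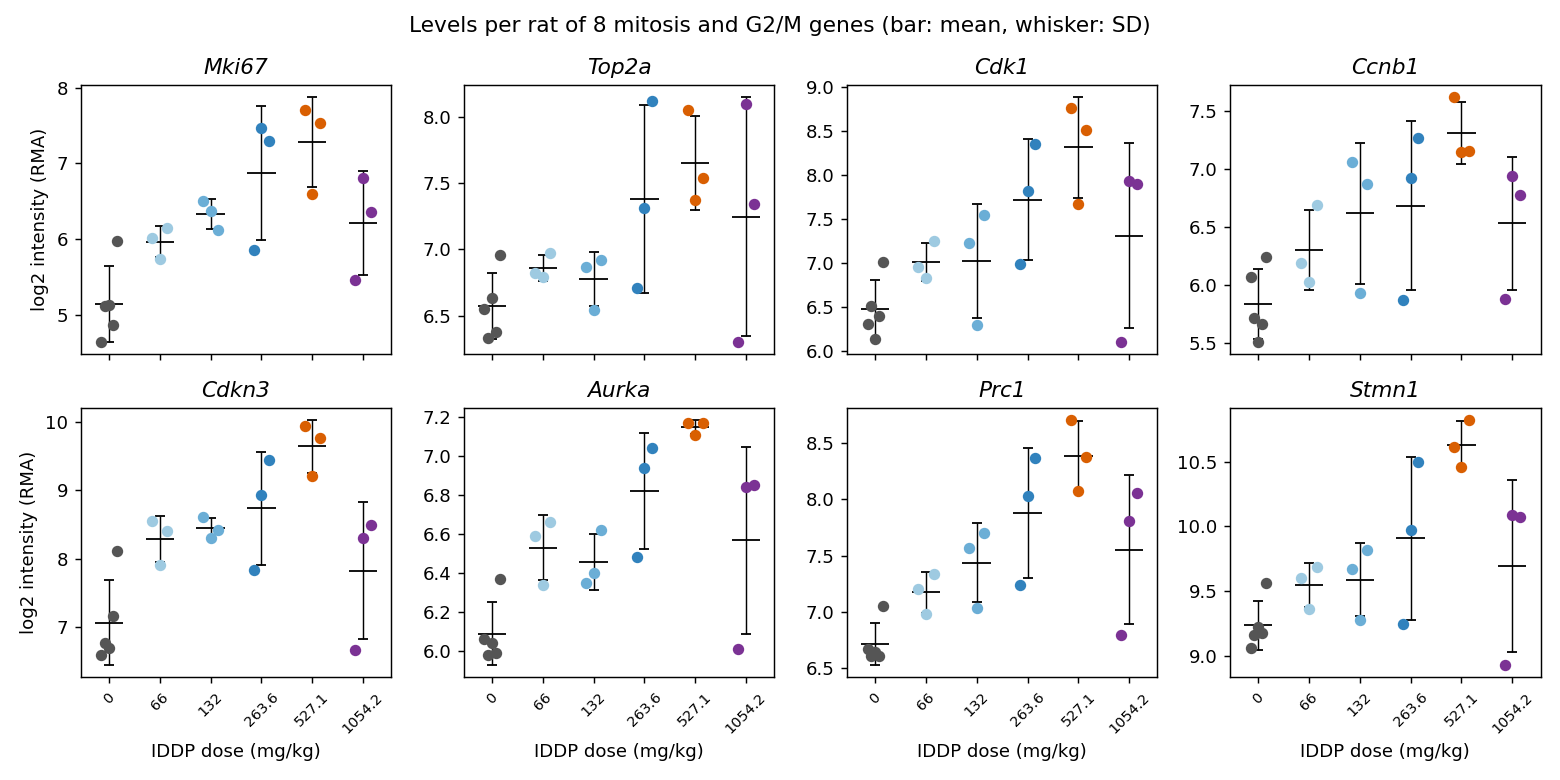
Deposited log2 intensity of 8 mitosis and G2/M genes in each rat (points) by dose, with the group mean (bar) and SD (whisker). In all 8 the 527.1 mg/kg rats lie above every control, and 1054.2 mg/kg replicate 1 lies low, inside the control range or below it.

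Of the genes for proliferation markers and chromosome structure 2 of 3 rose at 527.1 mg/kg. Mki67, whose product Ki-67 coats mitotic chromosomes and is the usual stain for cycling cells, had log2 levels of 4.64, 5.12, 5.13, 4.87 and 5.97 in the controls, 6.01, 5.74 and 6.15 at 66 mg/kg, 6.51, 6.37 and 6.12 at 132, 5.86, 7.47 and 7.30 at 263.6, 7.71, 6.60 and 7.53 at 527.1 and 5.46, 6.81 and 6.36 at 1054.2 mg/kg. Control replicate 5 was the highest control, and above it lay every rat at 132 and 527.1 mg/kg but not 263.6 or 1054.2 mg/kg replicate 1. Mki67 rose 4.38-fold at 527.1 mg/kg (2.13 ± 0.35 SE, adjusted p = 0.00286), with 1.06 ± 0.35 (SE, adjusted p = 0.112) at 1054.2 mg/kg. Smc2, a core subunit of condensin, was at 5.93, 5.52, 6.17, 6.02 and 6.16 in the controls, 6.52, 6.61 and 6.40 at 66 mg/kg, 6.99, 6.46 and 6.46 at 132, 5.97, 6.72 and 6.74 at 263.6, 6.98, 6.73 and 7.46 at 527.1 and 6.05, 7.21 and 6.80 at 1054.2 mg/kg. All rats at 66, 132 and 527.1 mg/kg were above the controls. The rise at 527.1 mg/kg was 1.10 ± 0.23 (SE, adjusted p = 0.0167); the call was lost when replicate 1 or 3 of that dose was left out (adjusted p = 0.0632 and 0.118). Top2a, the topoisomerase that untangles sister chromatids, had levels of 6.55, 6.33, 6.63, 6.38 and 6.96 in the controls, 6.82, 6.79 and 6.97 at 66 mg/kg, 6.87, 6.54 and 6.92 at 132, 6.71, 7.31 and 8.12 at 263.6, 8.05, 7.37 and 7.54 at 527.1 and 6.30, 8.10 and 7.34 at 1054.2 mg/kg. Although all 3 rats at 527.1 mg/kg lay above the controls, 1 rat each at 263.6 and 1054.2 mg/kg reached the same height and the others did not. The change at 527.1 mg/kg was 1.09 ± 0.30 (SE, adjusted p = 0.0758) and at 1054.2 mg/kg 0.68 ± 0.30 (SE, adjusted p = 0.281), and neither passed. The slope over dose ranks did (0.19 ± 0.05 per step, adjusted p = 0.0407), though not the slope on mg/kg. All of these values are from the brighter of the 2 probe sets of Top2a.

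Among the mitotic kinases and the chromosomal passenger complex 5 of 7 rose at 527.1 mg/kg. Aurka, the kinase that matures the centrosomes, had levels of 6.06, 5.98, 6.04, 5.99 and 6.37 in the controls, 6.59, 6.34 and 6.66 at 66 mg/kg, 6.35, 6.40 and 6.62 at 132, 6.48, 6.94 and 7.04 at 263.6, 7.17, 7.11 and 7.17 at 527.1 and 6.01, 6.84 and 6.85 at 1054.2 mg/kg. The 527.1 mg/kg rats lay close together above all others, and 4 of the controls lay close together below. Its change there was 1.06 ± 0.16 (SE, adjusted p = 0.00182), a 2.08-fold rise. Aurkb, the kinase of the passenger complex, was at 4.61, 4.84, 4.61, 4.73 and 5.02 in the controls, 5.26, 5.31 and 5.23 at 66 mg/kg, 5.81, 5.40 and 5.55 at 132, 4.89, 5.69 and 5.89 at 263.6, 6.07, 5.55 and 6.06 at 527.1 and 4.89, 6.18 and 5.68 at 1054.2 mg/kg. Every rat at 66, 132 and 527.1 mg/kg exceeded the controls. Aurkb rose by 1.14 ± 0.23 (SE, adjusted p = 0.0127) at 527.1 mg/kg and came near the threshold at 1054.2 mg/kg (0.82 ± 0.23 SE, adjusted p = 0.0539). Birc5, which encodes survivin, a passenger subunit, read 6.54, 6.68, 6.60, 6.88 and 6.78 in the controls, 7.07, 6.95 and 7.36 at 66 mg/kg, 6.96, 6.74 and 7.26 at 132, 7.03, 7.56 and 7.60 at 263.6, 7.81, 7.27 and 7.95 at 527.1 and 6.66, 7.13 and 7.26 at 1054.2 mg/kg. The 66, 263.6 and 527.1 mg/kg groups did not overlap the controls. It rose at 527.1 mg/kg by 0.98 ± 0.17 (SE, adjusted p = 0.00485), or 1.98-fold. Cdca8, which encodes borealin, a further passenger subunit, had levels of 6.07, 6.24, 5.85, 6.05 and 6.23 in the controls, 6.20, 6.24 and 6.47 at 66 mg/kg, 6.22, 6.24 and 6.54 at 132, 6.20, 6.39 and 6.80 at 263.6, 7.25, 6.79 and 7.11 at 527.1 and 6.32, 6.68 and 6.52 at 1054.2 mg/kg. It was 1 of the few members in which all 3 rats at 1054.2 mg/kg lay above the controls, if narrowly for replicate 1. Cdca8 had the smallest adjusted p of the members at 527.1 mg/kg (0.96 ± 0.14 SE, adjusted p = 0.00120), while its change at 1054.2 mg/kg was 0.42 ± 0.14 (SE, adjusted p = 0.120). Pbk, a mitotic protein kinase, was at 5.91, 5.88, 5.99, 5.82 and 6.08 in the controls, 6.14, 6.17 and 6.35 at 66 mg/kg, 6.87, 6.70 and 6.56 at 132, 6.16, 6.79 and 7.26 at 263.6, 7.71, 7.14 and 7.28 at 527.1 and 5.98, 7.20 and 7.0 at 1054.2 mg/kg. Of the 15 treated rats 14 were above every control, the most of any member, and the exception was 1054.2 mg/kg replicate 1. The change at 527.1 mg/kg was 1.44 ± 0.23 (SE, adjusted p = 0.00209). Melk, a kinase of dividing cells, had levels of 4.44, 4.23, 4.55, 4.72 and 4.66 in the controls, 4.65, 4.62 and 4.55 at 66 mg/kg, 4.54, 4.51 and 4.65 at 132, 4.69, 4.95 and 4.83 at 263.6, 5.22, 4.82 and 4.66 at 527.1 and 4.50, 5.09 and 5.14 at 1054.2 mg/kg. This was the only member with its highest group mean at 1054.2 mg/kg, though rats at both high doses overlapped the controls. Melk did not pass at 527.1 mg/kg (0.38 ± 0.14 SE, adjusted p = 0.224) or 1054.2 mg/kg (0.39 ± 0.14 SE, adjusted p = 0.169), and it passed in the slope over dose ranks (0.09 ± 0.02, adjusted p = 0.0311), though not in the slope on mg/kg. Plk1, the Polo-like kinase, had a change of 0.44 ± 0.14 (SE, adjusted p = 0.149) at 527.1 mg/kg and did not pass, although all 3 rats lay above the controls. The call of Aurkb was lost when 527.1 mg/kg replicate 1 or 3 was left out (adjusted p = 0.0794 and 0.0848).

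The spindle checkpoint genes were split, with 2 of 4 past the threshold at 527.1 mg/kg. Bub1, the kinase that recruits checkpoint proteins to kinetochores, had levels of 4.71, 4.52, 4.29, 4.44 and 4.66 in the controls, 5.00, 4.96 and 5.30 at 66 mg/kg, 5.71, 5.04 and 5.27 at 132, 4.34, 5.79 and 5.99 at 263.6, 6.35, 5.92 and 6.17 at 527.1 and 4.42, 6.41 and 5.70 at 1054.2 mg/kg. Every rat at 66, 132 and 527.1 mg/kg was above every control, and replicate 1 was low at both 263.6 and 1054.2 mg/kg. The rise at 527.1 mg/kg was 1.62 ± 0.34 (SE, adjusted p = 0.0166), or 3.08-fold; leaving out replicate 1 or 3 of that dose ended the call (adjusted p = 0.0746 and 0.0956). Ttk, the MPS1 kinase that starts the checkpoint signal, was at 4.33, 4.21, 4.36, 4.32 and 4.79 in the controls, 4.71, 4.64 and 4.72 at 66 mg/kg, 5.07, 5.16 and 5.08 at 132, 4.62, 5.57 and 5.56 at 263.6, 5.57, 5.48 and 5.50 at 527.1 and 4.56, 5.07 and 5.02 at 1054.2 mg/kg. The 132 and 527.1 mg/kg rats formed tight groups above the controls. Ttk rose by 1.11 ± 0.17 (SE, adjusted p = 0.00187) at 527.1 mg/kg, whereas a dimmer probe set of Ttk stood at -0.11. Bub1b, which encodes the checkpoint protein BUBR1, read 5.11, 5.12, 4.83, 5.20 and 5.31 in the controls, 5.11, 5.23 and 5.38 at 66 mg/kg, 5.28, 5.26 and 5.44 at 132, 5.76, 5.60 and 5.69 at 263.6, 5.58, 5.38 and 5.62 at 527.1 and 5.36, 5.70 and 5.70 at 1054.2 mg/kg. It differed from most members in that all rats at 263.6, 527.1 and 1054.2 mg/kg, the low replicates included, were above every control. The change was 0.47 ± 0.11 (SE, adjusted p = 0.0203) at 1054.2 mg/kg and 0.41 ± 0.11 (SE, adjusted p = 0.0661) at 527.1 mg/kg, so it passed at the first and not at the second. Its call at 1054.2 mg/kg was lost when control replicate 3, or replicate 2 or 3 of that dose, was left out (adjusted p = 0.0510 to 0.132). Mad2l1, the MAD2 inhibitor of CDC20, had a change of 0.62 ± 0.18 (SE, adjusted p = 0.0910) at 527.1 mg/kg and did not pass by any of its 3 probe sets (0.57 to 0.68).

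All 4 kinetochore genes rose at 527.1 mg/kg. Spc25, a subunit of the NDC80 complex that grips microtubules, had levels of 6.16, 6.64, 6.18, 6.45 and 6.79 in the controls, 6.85, 6.87 and 6.94 at 66 mg/kg, 7.31, 6.97 and 7.19 at 132, 6.74, 7.71 and 8.03 at 263.6, 8.44, 7.61 and 7.87 at 527.1 and 6.39, 7.55 and 7.53 at 1054.2 mg/kg. Only replicate 1 at 263.6 and replicate 1 at 1054.2 mg/kg, of the 15 treated rats, failed to exceed the controls. The change at 527.1 mg/kg was 1.53 ± 0.27 (SE, adjusted p = 0.00473), or 2.89-fold. Nuf2, of the same complex, was at 6.72, 6.64, 6.54, 6.69 and 7.05 in the controls, 7.0, 7.02 and 7.06 at 66 mg/kg, 6.87, 6.92 and 7.24 at 132, 6.96, 7.16 and 7.73 at 263.6, 8.10, 7.44 and 7.50 at 527.1 and 6.74, 6.98 and 7.39 at 1054.2 mg/kg. Control replicate 5 overlapped the 66 mg/kg group, and the 527.1 mg/kg rats lay above it. The rise there was 0.95 ± 0.18 (SE, adjusted p = 0.00720). Cenpf, a large protein of the outer kinetochore, had levels of 5.32, 5.75, 5.39, 5.75 and 6.06 in the controls, 6.09, 5.97 and 6.23 at 66 mg/kg, 6.46, 5.89 and 6.34 at 132, 6.01, 6.45 and 6.91 at 263.6, 7.34, 6.63 and 7.08 at 527.1 and 5.46, 6.63 and 6.73 at 1054.2 mg/kg. In each treated group except 527.1 mg/kg exactly 1 rat lay within the control range. Cenpf rose by 1.36 ± 0.25 (SE, adjusted p = 0.00720) at 527.1 mg/kg and had 0.62 ± 0.25 (SE, adjusted p = 0.231) at 1054.2 mg/kg. Cenpe, the kinetochore motor that brings chromosomes to the spindle equator, read 5.34, 5.74, 5.54, 5.28 and 5.52 in the controls, 5.41, 5.53 and 5.42 at 66 mg/kg, 5.52, 5.42 and 5.79 at 132, 5.64, 5.66 and 6.0 at 263.6, 6.11, 6.09 and 6.32 at 527.1 and 5.41, 5.73 and 5.81 at 1054.2 mg/kg. Few treated rats outside the 527.1 mg/kg group were above the controls, none of them at 66 mg/kg. The rise at 527.1 mg/kg was small and even, 0.69 ± 0.12 (SE, adjusted p = 0.00510). When 527.1 mg/kg replicate 1 was left out, Cenpf (adjusted p = 0.0650), Nuf2 (0.0735) and Spc25 (0.0505) missed the threshold.

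Of the kinesins, the motors of the spindle, 5 of 6 rose at 527.1 mg/kg. Kif11, the motor that pushes spindle poles apart, had levels of 5.40, 5.86, 5.70, 5.41 and 6.09 in the controls, 6.05, 5.91 and 6.08 at 66 mg/kg, 6.69, 6.18 and 6.15 at 132, 6.15, 6.56 and 6.85 at 263.6, 6.68, 6.69 and 6.91 at 527.1 and 5.97, 6.72 and 6.50 at 1054.2 mg/kg. The 132, 263.6 and 527.1 mg/kg groups lay wholly above the controls, and at 1054.2 mg/kg only replicate 1 overlapped them. Kif11 passed at both high doses, by 1.07 ± 0.18 (SE, adjusted p = 0.00440) at 527.1 mg/kg and 0.70 ± 0.18 (SE, adjusted p = 0.0394) at 1054.2 mg/kg, while the change in a second, dimmer probe set was 0.23 at 527.1 mg/kg and missed the threshold. Kif20a, a motor of the central spindle, was at 6.79, 6.73, 6.59, 6.82 and 7.50 in the controls, 7.45, 7.29 and 7.59 at 66 mg/kg, 7.49, 6.93 and 7.81 at 132, 7.18, 7.96 and 8.45 at 263.6, 8.74, 8.09 and 8.42 at 527.1 and 6.21, 7.75 and 7.83 at 1054.2 mg/kg. Control replicate 5 stood well above the other controls, and 1054.2 mg/kg replicate 1 was the lowest rat of all. The rise at 527.1 mg/kg was 1.53 ± 0.32 (SE, adjusted p = 0.0166). Kif22, which binds chromosome arms, read 5.92, 6.01, 5.95, 6.12 and 6.18 in the controls, 6.26, 6.27 and 6.53 at 66 mg/kg, 6.44, 6.17 and 6.54 at 132, 6.03, 7.23 and 7.36 at 263.6, 7.35, 7.29 and 7.22 at 527.1 and 6.04, 6.91 and 6.84 at 1054.2 mg/kg. Its 527.1 mg/kg rats lay close together and above the controls. The change was 1.25 ± 0.22 (SE, adjusted p = 0.00517), or 2.38-fold. Kif2c, which takes microtubules apart at the centromere, had levels of 5.98, 5.76, 5.82, 5.79 and 6.28 in the controls, 6.05, 6.03 and 6.30 at 66 mg/kg, 6.12, 5.96 and 6.33 at 132, 5.74, 6.39 and 6.55 at 263.6, 7.13, 6.23 and 7.14 at 527.1 and 5.61, 6.48 and 6.44 at 1054.2 mg/kg. Replicate 2 at 527.1 mg/kg fell just under the highest control, so the groups overlapped. Both probe sets of Kif2c passed at that dose, this one at 0.90 ± 0.22 (SE, adjusted p = 0.0434) and the dimmer one at 0.38 (adjusted p = 0.0423). Kif15, which backs up Kif11 on the spindle, had levels of 4.84, 4.84, 5.11, 4.73 and 4.89 in the controls, 5.52, 5.36 and 5.09 at 66 mg/kg, 5.32, 5.70 and 5.25 at 132, 5.13, 5.41 and 5.71 at 263.6, 6.23, 5.32 and 5.54 at 527.1 and 5.06, 5.82 and 5.22 at 1054.2 mg/kg. The 132, 263.6 and 527.1 mg/kg groups did not overlap the controls. The change at 527.1 mg/kg was 0.82 ± 0.19 (SE, adjusted p = 0.0343). Kif23, a motor of the midbody, was the only member with its highest mean in the controls, at a change of -0.12 ± 0.13 (SE, adjusted p = 0.766) at 527.1 mg/kg. Its dimmer probe set gave 1.04 ± 0.22 there (adjusted p = 0.0201), so the probe sets of Kif23 disagree. Kif20a lost its call at 527.1 mg/kg when replicate 1 or 3 of that dose was left out (adjusted p = 0.0711 and 0.111). Kif2c lost its call with either of these rats or any of control replicates 1 to 4 removed (0.0719 to 0.205), and Kif15 with either of these or any of control replicates 1, 2, 4 and 5 removed (0.0520 to 0.218). The call of Kif11 at 1054.2 mg/kg ended with replicate 2 or 3 of that dose or any of control replicates 1 to 4 removed (0.0506 to 0.242).

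The 5 genes for spindle and microtubule proteins all rose at 527.1 mg/kg, with a median change of 1.38. Prc1, which cross-links the microtubules of the central spindle, had levels of 6.67, 6.61, 6.65, 6.61 and 7.05 in the controls, 7.20, 6.98 and 7.34 at 66 mg/kg, 7.57, 7.04 and 7.70 at 132, 7.24, 8.03 and 8.36 at 263.6, 8.70, 8.07 and 8.37 at 527.1 and 6.80, 7.81 and 8.05 at 1054.2 mg/kg. Apart from replicate 5 the controls lay close together, and every rat at 263.6 and 527.1 mg/kg was above them all. Prc1 rose 3.17-fold at 527.1 mg/kg (1.66 ± 0.25 SE, adjusted p = 0.00158). Stmn1, which encodes stathmin, a protein that destabilises microtubules, read 9.06, 9.16, 9.22, 9.18 and 9.56 in the controls, 9.60, 9.36 and 9.69 at 66 mg/kg, 9.67, 9.28 and 9.82 at 132, 9.25, 9.97 and 10.50 at 263.6, 10.61, 10.46 and 10.82 at 527.1 and 8.93, 10.09 and 10.07 at 1054.2 mg/kg. At 527.1 mg/kg all rats lay above the controls and at 1054.2 mg/kg replicate 1 lay below them. Its rise at 527.1 mg/kg was 1.39 ± 0.25 (SE, adjusted p = 0.00502), or 2.63-fold. Hmmr, a spindle pole protein also known as RHAMM, was at 5.83, 5.90, 5.55, 5.74 and 6.03 in the controls, 6.19, 5.98 and 6.36 at 66 mg/kg, 6.69, 5.73 and 6.44 at 132, 6.49, 6.82 and 7.41 at 263.6, 7.17, 6.89 and 7.50 at 527.1 and 5.94, 7.04 and 6.93 at 1054.2 mg/kg. The 263.6 and 527.1 mg/kg groups stood clear of the controls. The change was 1.38 ± 0.24 (SE, adjusted p = 0.00503) at 527.1 mg/kg, and 0.34 in its second probe set, which did not pass. Nusap1, which bundles spindle microtubules, had levels of 6.80, 7.34, 6.82, 6.99 and 7.41 in the controls, 7.33, 7.34 and 7.45 at 66 mg/kg, 7.57, 7.74 and 7.58 at 132, 7.51, 7.78 and 8.02 at 263.6, 8.45, 7.86 and 7.71 at 527.1 and 7.34, 8.01 and 7.72 at 1054.2 mg/kg. From 132 to 527.1 mg/kg all rats were above every control, although by little for several. It rose by 0.93 ± 0.18 (SE, adjusted p = 0.00813) at 527.1 mg/kg, and a second probe set rose by 1.16 (adjusted p = 0.0327). Dlgap5, an Aurora A substrate that stabilises spindle fibres, had levels of 6.59, 6.26, 6.29, 6.36 and 6.76 in the controls, 6.55, 6.50 and 6.46 at 66 mg/kg, 6.67, 6.59 and 6.67 at 132, 6.63, 6.58 and 6.87 at 263.6, 7.54, 6.99 and 7.27 at 527.1 and 6.32, 6.95 and 6.71 at 1054.2 mg/kg. No rat at 66 or 132 mg/kg exceeded the highest control, and all did at 527.1 mg/kg. The rise at that dose was 0.82 ± 0.14 (SE, adjusted p = 0.00411), against 0.21 ± 0.14 (SE, adjusted p = 0.546) at 1054.2 mg/kg. Nusap1 missed the threshold at 527.1 mg/kg when replicate 1 was removed (adjusted p = 0.0786).

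The 4 genes of anaphase and mitotic exit rose at 527.1 mg/kg, with a median change of 1.21, and at 1054.2 mg/kg their median of 0.33 was the lowest among the roles. Pttg1, which encodes securin, the inhibitor of separase, had levels of 7.46, 7.45, 7.35, 7.44 and 7.77 in the controls, 7.96, 7.85 and 8.03 at 66 mg/kg, 7.93, 7.32 and 8.0 at 132, 7.38, 8.02 and 8.37 at 263.6, 8.65, 8.56 and 9.17 at 527.1 and 7.17, 7.76 and 7.97 at 1054.2 mg/kg. The 527.1 mg/kg rats lay above all rats of every other group. The change was 1.30 ± 0.21 (SE, adjusted p = 0.00235) at 527.1 mg/kg and 0.14 ± 0.21 (SE, adjusted p = 0.835) at 1054.2 mg/kg. Cdca3, which marks WEE1 for destruction at mitotic entry, was at 7.16, 7.34, 7.24, 6.84 and 7.75 in the controls, 7.89, 7.67 and 7.91 at 66 mg/kg, 8.23, 7.67 and 7.89 at 132, 7.88, 8.85 and 8.92 at 263.6, 9.23, 8.79 and 9.23 at 527.1 and 6.82, 8.22 and 8.32 at 1054.2 mg/kg. Every rat at 263.6 and 527.1 mg/kg was above the controls, and 1054.2 mg/kg replicate 1 lay below them. Cdca3 rose 3.52-fold at 527.1 mg/kg (1.82 ± 0.28 SE, adjusted p = 0.00188). Cdc20, the activator of the anaphase-promoting complex, read 6.83, 6.89, 6.70, 6.72 and 7.20 in the controls, 7.09, 6.90 and 7.34 at 66 mg/kg, 7.15, 7.04 and 7.53 at 132, 6.72, 7.68 and 7.92 at 263.6, 8.06, 7.58 and 8.07 at 527.1 and 6.26, 7.18 and 7.50 at 1054.2 mg/kg. Replicate 1 at 1054.2 mg/kg was the lowest rat of all for this gene. Cdc20 rose by 1.03 ± 0.25 (SE, adjusted p = 0.0394) at 527.1 mg/kg with 2 of its 5 probe sets past the threshold, and at 1054.2 mg/kg its change was 0.11 ± 0.25 (SE, adjusted p = 0.895). Ube2c, the ubiquitin-conjugating enzyme of that complex, had levels of 6.68, 6.65, 6.50, 6.70 and 7.03 in the controls, 7.09, 6.75 and 7.23 at 66 mg/kg, 6.99, 6.64 and 7.36 at 132, 6.80, 7.38 and 7.94 at 263.6, 8.17, 7.55 and 7.77 at 527.1 and 6.51, 7.68 and 7.54 at 1054.2 mg/kg. All rats at 527.1 mg/kg were above the controls, and at each other dose 1 or 2 were. Its rise was 1.12 ± 0.25 (SE, adjusted p = 0.0249). Removing any of control replicates 1 to 4 ended the calls of both Cdc20 and Ube2c, as did removing any rat at 527.1 mg/kg for Cdc20 (adjusted p = 0.0501 to 0.161) and replicate 1 or 3 there for Ube2c (0.0501 to 0.154).

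Both measured cytokinesis genes rose at 527.1 mg/kg. Ect2, the exchange factor that activates RhoA at the division plane, had levels of 5.54, 6.03, 6.11, 6.02 and 6.80 in the controls, 6.84, 7.11 and 6.94 at 66 mg/kg, 7.89, 7.20 and 7.22 at 132, 6.20, 8.03 and 7.78 at 263.6, 8.74, 7.82 and 8.22 at 527.1 and 5.84, 7.60 and 7.66 at 1054.2 mg/kg. All rats at 66, 132 and 527.1 mg/kg lay above every control, and replicate 1 at 263.6 and at 1054.2 mg/kg did not. Ect2 rose 4.47-fold at 527.1 mg/kg (2.16 ± 0.40 SE, adjusted p = 0.00639). Racgap1, of the centralspindlin complex, was at 5.65, 5.90, 5.58, 5.71 and 5.97 in the controls, 6.30, 6.13 and 6.36 at 66 mg/kg, 6.60, 5.77 and 6.28 at 132, 5.94, 6.74 and 7.25 at 263.6, 7.61, 6.90 and 7.35 at 527.1 and 5.58, 6.84 and 6.83 at 1054.2 mg/kg. The 66 mg/kg group was above the controls as a whole, as was the 527.1 mg/kg group. The rise at 527.1 mg/kg was 1.53 ± 0.27 (SE, adjusted p = 0.00541), and 0.46 in a second probe set that did not pass. Without 527.1 mg/kg replicate 1 neither Ect2 (0.0609) nor Racgap1 (0.0529) passed.

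The step from 527.1 to 1054.2 mg/kg was tested in the same model. The mean at 1054.2 mg/kg was below that at 527.1 mg/kg for 39 of the 42 genes and below that at 263.6 mg/kg for 37, with a median difference of -0.64 from 527.1 mg/kg. Without 1054.2 mg/kg replicate 1 the first count was 38 and the second 13. The second was 40 without 263.6 mg/kg replicate 1, and 32 without both of these rats and control replicate 5. The order of 1054.2 and 263.6 mg/kg thus depended on which of the low rats were kept. In limma 0 members passed as lower, where 0.00322% of probe sets did, and the smallest adjusted p was 0.125, for Pttg1. At an unadjusted p under 0.05, 28 members were lower, against 3.22% of probe sets, and 12 were without 1054.2 mg/kg replicate 1. Leaving out 1 rat at a time gave median differences from -0.80 to -0.38 and a count of 0 each time.

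Across all doses, the slope over the rank of the dose from 0 to 5 passed as higher for 23 of the 42 genes, against 2.97% of probe sets, with a median of 0.17 per step. Those with the smallest adjusted p were Bub1b (0.10 ± 0.02 SE, adjusted p = 0.00299), Kif11 (0.18 ± 0.04 SE, adjusted p = 0.00354), Hmmr (0.23 ± 0.05 SE, adjusted p = 0.00502) and Pbk (0.22 ± 0.05 SE, adjusted p = 0.00520). With the slope taken on the dose in mg/kg instead of its rank, 0 members passed in limma, and Top2a and Melk were among those that did not. An unadjusted p under 0.05 was found for 19, but the share of all probe sets with such a p is not given for this slope. For the rank, the count was 38 without 1054.2 mg/kg replicate 1. It was 13, 12, 11 and 13 without control replicates 1, 2, 3 and 4, and 14 and 15 without 527.1 mg/kg replicates 1 and 3.

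Other mitotic genes were a list of 65 measured genes outside the 42. At 527.1 mg/kg 23 of 65 rose, against 1.19% of all probe sets, and 0 fell, against 0.483%, with a median change of 0.46; 42 did not pass, and 48 had an unadjusted p under 0.05 with a higher level, against 7.60% of probe sets. The 23 ran from 0.33 in the condensin II gene Ncapd3 to 1.73 in Cenpw, of the inner kinetochore, a range that was picked out after the values were seen. At 1054.2 mg/kg, where 1.86% of probe sets passed as higher, 3 rose: the checkpoint ATPase gene Trip13 (0.84 ± 0.15 SE, adjusted p = 0.00325), the kinetochore gene Zwint (0.79 ± 0.12 SE, adjusted p = 0.000606) and the condensin II gene Ncaph2 (0.41 ± 0.11 SE, adjusted p = 0.0345). Their mean per rat relative to the controls was 0.59, 0.40 and 0.53 at 527.1 mg/kg, and 0.05, 0.43 and 0.34 at 1054.2 mg/kg. Replicate 1 was thus low at the highest dose in this list too, and at 66, 132 and 263.6 mg/kg 0 of the 65 passed in limma, with 8, 19 and 31 higher at an unadjusted p under 0.05, against 1.70%, 8.11% and 6.63% of probe sets. Ncaph2 missed the threshold at 1054.2 mg/kg when control replicate 1, 2 or 4, or replicate 2 or 3 of the dosed rats, was removed (0.0742 to 0.191). Trip13 (0.63 ± 0.15 SE, adjusted p = 0.0409) and Zwint (0.54 ± 0.12 SE, adjusted p = 0.0234) passed at 527.1 mg/kg, and each missed the threshold when any single rat of that dose was removed. The same held with any of control replicates 1 to 4 removed for Trip13 (0.0674 to 0.139) and with control replicate 2 or 3 removed for Zwint (0.0548 to 0.0990).

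S-phase genes act in DNA replication before mitosis. Of 41 measured, 5 rose at 527.1 mg/kg and 1 fell, against 1.19% and 0.483% of all probe sets, with a median change of 0.24. The 5 were the thymidine kinase gene Tk1 (0.70 ± 0.13 SE, adjusted p = 0.00534), Rrm1 of ribonucleotide reductase (0.69 ± 0.15 SE, adjusted p = 0.0214), the dUTPase gene Dut (0.62 ± 0.14 SE, adjusted p = 0.0262), the clamp loader gene Rfc4 (0.61 ± 0.15 SE, adjusted p = 0.0441) and Gins4 of the replicative helicase (0.46 ± 0.10 SE, adjusted p = 0.0154); they are named because they passed, after their values were seen, and were not refitted without single rats. Mcm10, a replication initiation factor, fell at 527.1 mg/kg (-0.56 ± 0.09 (SE, adjusted p = 0.00214)) and at 1054.2 mg/kg (-0.40 ± 0.09 (SE, adjusted p = 0.0154)). The helicase gene Mcm4 (0.59 ± 0.14 SE, adjusted p = 0.0212), Uhrf1, which carries DNA methylation through replication (0.56 ± 0.14 SE, adjusted p = 0.0302), and Rpa2, of the protein that coats single strands (0.45 ± 0.10 SE, adjusted p = 0.0114), rose at 1054.2 mg/kg. At that dose 1.86% of all probe sets passed as higher and 1.44% as lower. Pcna, the sliding clamp, and Mcm2, a helicase subunit, did not pass at any dose. Their changes at 527.1 mg/kg were 0.17 ± 0.12 (SE, adjusted p = 0.596) and 0.24 ± 0.11 (SE, adjusted p = 0.367). At that dose Mcm2, Mcm4 (0.40), Uhrf1 (0.51) and Rpa2 (0.33) were higher at an unadjusted p under 0.05 in limma, and Pcna was not. Such a p with a higher level was found in 7.60% of all probe sets. The 5 that passed are thus not the only S-phase genes with higher levels there. The mean of the S-phase list per rat was 0.22, 0.23 and 0.28 at 527.1 mg/kg and 0.12, 0.31 and 0.19 at 1054.2 mg/kg, so that these groups overlap. Removing 1054.2 mg/kg replicate 2 ended the calls of Mcm10 (0.128), Mcm4, Uhrf1 and Rpa2 at that dose. With replicate 2 or 3 removed Mcm4 stood at 0.0624 to 0.153 and Rpa2 at 0.0652 to 0.0949, and with replicate 2 or any of control replicates 2, 3 and 4 removed Uhrf1 stood at 0.0715 to 0.240.

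Among 26 G1 regulators and E2F factors 0 passed at 527.1 mg/kg in limma, and 6 had an unadjusted p under 0.05, 4 of them higher (Myc, Lin9, Lin54 and Tfdp2) and 2 lower (Cdk6 and Lin52), against 7.60% and 5.98% of probe sets. Myc, the growth-related transcription factor, was at 6.78, 6.83, 7.33, 7.25 and 7.93 in the controls, 9.03, 9.02 and 9.12 at 66 mg/kg, 7.75, 8.18 and 7.66 at 132, 7.65, 8.17 and 7.17 at 263.6, 7.95, 8.0 and 7.77 at 527.1 and 8.64, 9.31 and 9.54 at 1054.2 mg/kg. Its groups at the lowest and the highest dose stood above all controls, unlike those in between. Myc rose at 66 mg/kg (1.83 ± 0.24 SE, adjusted p = 0.00418) and 1054.2 mg/kg (1.94 ± 0.24 SE, adjusted p = 7.64e-05) and did not pass at 527.1 mg/kg (0.68 ± 0.24 SE, adjusted p = 0.177), where the mitotic genes were highest. Lin9, a MuvB subunit, rose at 1054.2 mg/kg (0.58 ± 0.15 SE, adjusted p = 0.0340), a call lost with control replicate 1, 4 or 5, or replicate 2 or 3 of the dose, removed (0.0507 to 0.226). The cyclin gene Ccnd1, which drives entry from G1, did not pass at any dose (-0.45 ± 0.31 (SE, adjusted p = 0.594) at 527.1 mg/kg).

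Of 16 genes for inhibitors and checkpoint brakes 1 rose and 1 fell at 527.1 mg/kg, against 1.19% and 0.483% of all probe sets. Cdkn2c, a further inhibitor gene that had been placed among the other mitotic genes and is counted in their 23, rose too. Cdkn1a, which encodes the CDK inhibitor p21, was at 10.31, 10.28, 10.76, 10.61 and 9.61 in the controls, 10.21, 10.18 and 10.71 at 66 mg/kg, 9.97, 10.59 and 10.03 at 132, 10.61, 10.22 and 9.41 at 263.6, 8.98, 8.91 and 8.84 at 527.1 and 8.23, 8.20 and 8.08 at 1054.2 mg/kg. Both high doses lay below every control, including replicate 5, the lowest control. Cdkn1a fell at 527.1 mg/kg (-1.40 ± 0.24 (SE, adjusted p = 0.00371)) and at 1054.2 mg/kg (-2.14 ± 0.24 (SE, adjusted p = 2.57e-05)), in every rat of both groups. Every rat at 1054.2 mg/kg lay below every rat at 527.1 mg/kg. The difference between these doses was -0.74 ± 0.27 (SE, adjusted p = 0.683) in limma and did not pass. Replicate 1 at 1054.2 mg/kg, which was low for most mitotic genes, lay with its group for Cdkn1a. Cdkn2d, which encodes the CDK4 and CDK6 inhibitor p19, rose at 527.1 mg/kg (0.55 ± 0.11 SE, adjusted p = 0.0109), as did Cdkn2c, for the related inhibitor p18 (0.51 ± 0.11 SE, adjusted p = 0.0231), which was named after its values were seen. Wee1, the kinase that holds CDK1 inactive, rose at 1054.2 mg/kg (0.48 ± 0.10 SE, adjusted p = 0.0103) and not at 527.1 mg/kg (0.15 ± 0.10 SE, adjusted p = 0.579); the call at 1054.2 mg/kg was lost without its replicate 3 (0.110).

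**Figure D5:**
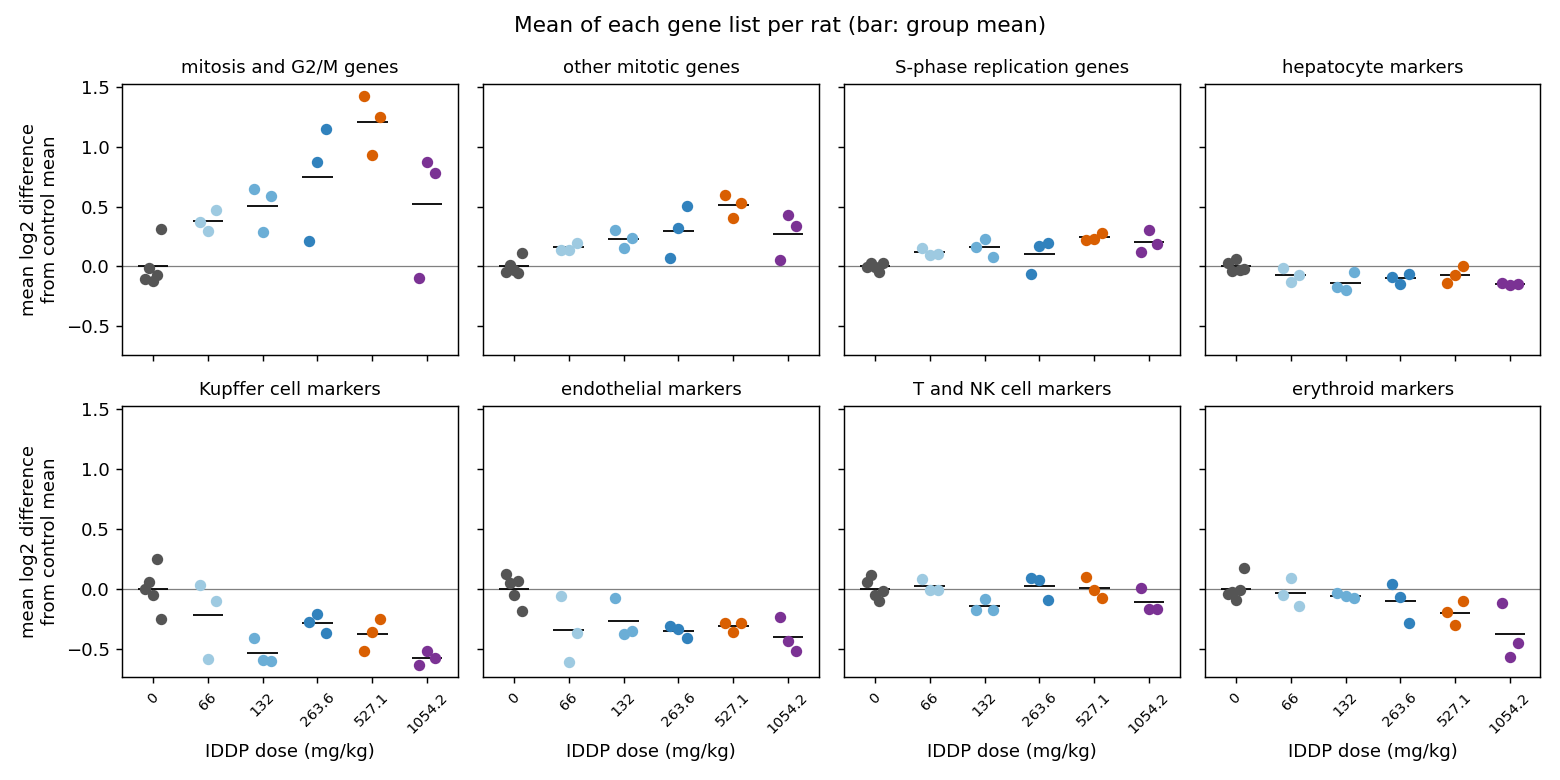
Mean of each gene list in each rat, as log2 difference from the control mean, by dose (points are rats, bars are group means). The mitosis and G2/M genes reach 1.42 at 527.1 mg/kg and the S-phase genes 0.28, while the hepatocyte markers stay between -0.20 and 0.06 in every rat.

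Markers of the other cells of the liver were read in the same arrays. T and NK cell markers, 12 of 12 measured, had mean levels of 5.96 to 6.14 at 527.1 mg/kg, inside the control range of 5.94 to 6.16. In limma 0 passed there, with 1 lower at an unadjusted p under 0.05, against 5.98% of all probe sets. B cell markers, 4 of 7 measured, were at 5.74 to 5.84 against 5.85 to 5.96 in controls. Kupffer cell and macrophage markers, 9 of 12 measured, were lower at 9.47 to 9.73 against 9.73 to 10.23, and at 1054.2 mg/kg they ran from 9.35 to 9.46 with 6 of 9 past the threshold as lower, against 1.44% of all probe sets. Endothelial markers, 8 of 10 measured, were at 9.39 to 9.47 at 527.1 mg/kg against 9.57 to 9.88 in controls. Stellate cell and fibroblast markers, 10 of 10 measured, were at 7.93 to 8.07 against 8.05 to 8.45. The Kupffer, endothelial and stellate lists were not lowest at 527.1 mg/kg: the mean change from controls there was -0.38, -0.31 and -0.30, against -0.58, -0.40 and -0.46 at 1054.2 mg/kg. Erythroid markers, 8 of 12 measured, ran from 7.44 to 7.63 at 527.1 mg/kg against 7.64 to 7.91, and cholangiocyte markers, 6 of 8 measured, from 6.87 to 6.90 inside the control range of 6.71 to 7.14. Neutrophil markers, 5 of 8 measured, moved with 263.6 mg/kg instead, at 5.77 to 6.34 against 5.37 to 5.66 in controls. Of the 5, 1 was past the threshold as higher, against 0.274% of all probe sets. The part of these shifts in the results for the mitotic genes was not tested.

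RNA quality was read from control probe sets of the same arrays. In the Actb and Gapdh control probe sets the 3' signal exceeds the 5' signal by more when RNA is more degraded, and this log2 excess was 1.59 to 1.78 at 527.1 mg/kg and 1.55 to 1.75 at 1054.2 mg/kg, inside the control range of 1.24 to 1.89. Replicate 2 at 132 mg/kg had the highest excess (3.25) and replicate 2 at 263.6 mg/kg the next (2.47). The former was the lowest rat of its group for 31 of the 42 genes, and the latter was above all controls for 38. A fit with this excess as a covariate is among the alternatives given further on. The part of RNA quality in the results for the mitotic genes was otherwise not tested.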

How the data were processed

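Liver RNA of 20 rats was measured on 20 Affymetrix arrays. The authors deposited log2 values for each probe set. RMA is the method named by the submitters' processing notes, and its version and the set of arrays it was run on are not given in those notes. Of 31099 probe sets, 57 array controls were left out and 31042 were tested with no brightness filter. limma 3.58.1 under R 4.3.3 fitted 1 mean per group to all arrays (14 residual and 5.75 prior degrees of freedom), with two-sided tests and Benjamini-Hochberg adjustment over all probe sets at 0.05; the fit was tested on simulated data. The p-values measure the spread between rats, and the number of arrays limits precision.

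The members and lists were chosen with earlier results of these data known. Genes with values for every rat are the 38 members past the threshold in any of 7 contrasts, with Mki67, Top2a, Cdk1 and Ccnb1 among them; Kif23, Plk1, Cks2 and Mad2l1 are the other members. From each of 4 further lists the rule took up to 4 genes of largest change past the threshold at 1054.2 mg/kg, and also Pcna, Mcm2, Ccnd1, Cdkn1a and Myc. Errors are SE for changes and SD for group means. Marker lists were averaged per array, without a test. Alternatives covered filters, probe set choice, centring, normalization, prior, weights, block, RNA quality, dose scale and each rat left out.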

Additional observations from a re-analysis of the deposited data

Results flagged for a closer look

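Control replicate 5 lay far above the other 4 controls for 5 of the members. Its gap to the next control, as a share of the whole range of the controls, was 0.749 for Kif20a, 0.793 for Aurka, 0.879 for Prc1, 0.755 for Ttk and 0.742 for Pttg1, and 0.75 for the mean of the 42 members. The critical value for 5 samples is 0.71. In all, 57 control groups of values were checked, of which about 1 in 20 would pass it by chance. The genes share this rat, so these values are not independent of each other. Without control replicate 5, 35 members passed at 527.1 mg/kg, 10 at 263.6 mg/kg and 4 at 1054.2 mg/kg in limma.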

How the results depend on the processing

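At 527.1 mg/kg the count past the threshold was 24 to 39 of the measured members over all alternatives that kept every rat, with a median change of 1.05 to 1.25, and the 24 were out of the 27 members left after dim probe sets were removed. It was 17 to 35 with 1 rat left out. At 263.6 mg/kg the count of 6 became 10 with 1 probe set per gene, 3 with array medians centred and 36 with array weights, and 0 to 12 with 1 rat left out. At 1054.2 mg/kg the count of 2 became 6 with 1 probe set per gene, 37 with array weights, 5 with the 3' minus 5' difference as a covariate, 0 with only the 2 groups fitted, and 0 to 23 with 1 rat left out, and the median change ran from 0.34 to 0.84. At 132 mg/kg it became 1 with only the 2 groups fitted and 0 to 1 with 1 rat left out. Between 1054.2 and 527.1 mg/kg 4 members passed with array weights. For the slope over dose ranks the count of 23 became 35 with array weights, 0 with the slope taken on mg/kg, and 11 to 38 with 1 rat left out. The median slope was 0.15 to 0.22. The shares of all probe sets that passed in these alternatives are not given, so the counts cannot be set against them.

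With 1 rat of 1054.2 mg/kg left out, 3 changes turned sign, none of them past the threshold: Cdc20 ran from -0.15 without replicate 3 to 0.47 without replicate 1, Pttg1 from -0.031 to 0.37 likewise, and Ccnd1 from -0.61 without replicate 1 to 0.13 without replicate 2. The cause of these shifts was not tested. The labels number the rats within each group and tie no number across groups: over 45 same-numbered pairs the correlation of deviations from the group means ran from -0.352 to 0.472, and 9 of 18 rats correlated best with their own number. With the replicate number as a block, 30 members passed at 527.1 mg/kg, 1 at 1054.2 mg/kg and 7 in the slope. Low signal limits the members outside those 27, whose mean level lay below 6.37, the median over all probe sets. Mki67, Ccna2, Bub1, Bub1b, Aurkb, Ttk, Kif15 and Melk are among them.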
